A study of Homo sapiens with 8 samples.

Results

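Genes that mark whether a cell is in an epithelial or a mesenchymal state were followed through 8 RNA sequencing libraries of human prostate cancer cells. They are VIM, CDH1, CDH2, EPCAM, ZEB1, ZEB2, SNAI1, SNAI2, ESRP1 and ESRP2, chosen by name and matched by Ensembl identifier, and they are 10 of the 57905 genes in the deposited table. EnzaR is a prostate cancer line labelled as resistant to enzalutamide, which blocks the androgen receptor, and was grown in medium with 10 uM of the drug. For 48 h its cells received 40 nM of siRNA, either a control (siNC, 2 libraries) or one that targets YAP1 (siYAP1, 2 libraries). The LNCaP line, labelled as sensitive to enzalutamide, was grown without the drug. Its 4 libraries, 1 per group, are a vehicle control and cells given extracellular vesicles (EVs) of EnzaR cells for 48 h. The vesicles came from EnzaR cells with control siRNA (EV-siNC), with YAP1 depleted (EV-siYAP1) or with COUP-TFII depleted (EV-siCII). NR2F2 encodes COUP-TFII, a nuclear receptor, and YAP1 is the transcriptional co-activator that Hippo signalling holds back. The labels do not name the line EnzaR was derived from, whether it is a clone, or the vehicle.

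Epithelial cells hold to their neighbours through E-cadherin (CDH1) and the adhesion molecule EPCAM, while mesenchymal cells carry N-cadherin (CDH2) and the intermediate filament protein vimentin (VIM). The zinc finger repressors SNAI1, SNAI2, ZEB1 and ZEB2 bind E-box sequences and repress CDH1 and other epithelial genes, and the transition they drive has been studied as a route to invasion in carcinomas. ESRP1 and ESRP2 are RNA-binding proteins that keep the epithelial splice forms of transcripts such as FGFR2, CTNND1 and ENAH.

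Total counts ran from 16682669 to 18248939 per library, so that 3 counts corresponded to 0.164 to 0.18 CPM (counts scaled to library size, with TMM factors). YAP1 was at 59.9 and 49 CPM with siNC and at 6.04 and 7.27 CPM with siYAP1, while NR2F2 stayed between 43.3 and 54.4 CPM in all 8. All 12 luminal prostate markers reached 1 CPM in both lines. The basal markers KRT5 and TP63 had 0 counts in every library, as had the leukocyte markers PTPRC and CD3E. In EnzaR against LNCaP libraries the summed markers lay at 22.9 to 25.9 against 51.9 to 54.1 CPM for basal cells, and at 30.9 to 37.9 against 125 to 188 CPM for neuroendocrine cells. They lay at 8.76 to 9.78 against 11 to 13.4 CPM for endothelial cells and leukocytes, and at 14.9 to 25.5 against 19.2 to 29.2 CPM for prostate lines without the androgen receptor. Most of the basal sum was ITGB4, with means of 21.6 against 44.3 CPM. Most of the neuroendocrine sum was ENO2, with means of 30 against 157 CPM. The neuroendocrine marker SYP went the other way, at 3.31 against 1.86 CPM, and only 2 of the 10 such markers reached 1 CPM in each line. The labels do not say that libraries of a group were grown as separate cultures, and the p-values therefore rest on the spread between libraries alone, which may be technical. In bulk RNA, fewer cells with a transcript and less of it per cell cannot be told apart.

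The order of the genes in each line was read from FPKM, which divides by gene length. In LNCaP libraries CDH1 was highest at 145 to 162 FPKM. VIM followed at 55.31 to 59.86, EPCAM at 30.93 to 33.26, ESRP2 at 17.83 to 19.65, ESRP1 at 8.72 to 11.36, SNAI1 at 2.81 to 3.82 and SNAI2 at 0.15 to 0.35 FPKM. None of these neighbouring ranges overlapped. In EnzaR libraries CDH1 was again highest, at 49.45 to 81.65 FPKM, but VIM was near the bottom of the order. It was at 0.15 and 0.2 FPKM with siNC and at 0 and 0.4 FPKM with siYAP1, against 0.03 to 0.14 FPKM of SNAI2, so that the library without VIM lay below SNAI2 and the other 3 above it. EPCAM (26.69 to 28.56) and ESRP2 (22.55 to 28.01) overlapped in EnzaR, and so did ESRP1 (3.75 to 5.07) and SNAI1 (3.75 to 5.01). CDH2 and ZEB1 were at most at 0.01 FPKM in any library, and ZEB2 was at 0 in all. The CDH1 level was thus 149 to 544 times that of VIM in the 3 EnzaR libraries with any VIM, and 2.43 to 2.8 times in LNCaP.

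**Figure D1:**
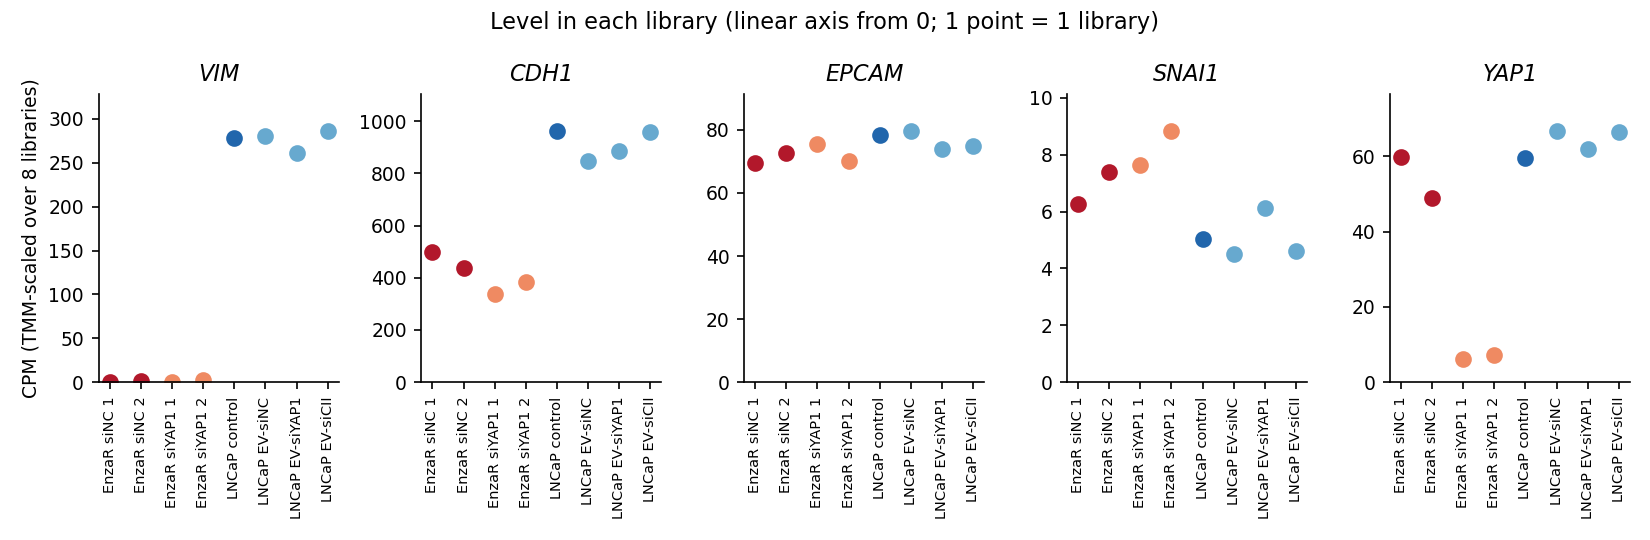
CPM (scaled over the 8 libraries, linear axes from 0) of VIM, CDH1, EPCAM, SNAI1 and YAP1, with 1 point per library and EnzaR in red and orange, LNCaP in blue. VIM lies at 0 to 2.08 CPM in the 4 EnzaR libraries and at 261 to 286 CPM in the 4 LNCaP libraries, while the EPCAM points of both lines overlap.

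The comparison of the lines asked how the resistant cells differ from LNCaP. It took 4 libraries against 4, with the treatments inside a line counted as spread. The lines also differed in drug exposure and siRNA transfection, so line, drug and transfection cannot be told apart. VIM was nearly absent from EnzaR cells, and over all 4 libraries per line CDH1 and ESRP1 were at less than 50% of their LNCaP level. For siNC libraries against the LNCaP control alone, the log2 fold change of ESRP1 was -0.84, short of 2-fold. ESRP2 and SNAI1 were 1.49-fold higher in EnzaR, and EPCAM did not pass the test. Of the 6 genes with enough counts to be tested, 5 were called, 2 higher and 3 lower. Among all 15640 genes tested with edgeR 72.6% were called, 36.2% higher and 36.4% lower, so 5 of 6 is near that background. The lines did not overlap for 5 of the 6, against 66.2% of all genes, and 3 of the 6 (VIM, CDH1 and ESRP1) were called with at least a 2-fold difference, against 35% of all genes.

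VIM (ENSG00000026025, hg19, chromosome 10, 17270258 to 17279592, plus strand) had 13 and 18 counts in the siNC libraries and 0 and 36 counts in the siYAP1 libraries. In LNCaP it had 4868 counts in the control, 5308 with EV-siNC, 4818 with EV-siYAP1 and 5215 with EV-siCII. Every LNCaP library was high and every EnzaR library was near the bottom of the scale, with no overlap. The means were 0.947 ± 0.862 CPM in EnzaR and 276 ± 10.7 CPM in LNCaP (SD, n = 4). The log2 fold change was -8.14 with SE 0.311 (95% interval -8.81 to -7.47), a 282-fold lower level in EnzaR (edgeR quasi-likelihood test, adjusted p = 1.44e-11). By size of fold change VIM stood at rank 38 of the 15640 genes tested.

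VIM-AS1, an antisense transcript over the first part of VIM, had 0 counts in the 4 EnzaR libraries and 65, 53, 47 and 60 in the LNCaP libraries in the order above. Its sense and antisense reads cannot be told apart, since the strand setting of counting is not given in the sources used here. The EnzaR library with the most VIM, siYAP1 replicate 2, also held 58 counts of COL3A1, 6 of COL1A2, 7 of DCN and 6 of LUM, genes of fibroblast matrix that had 0 counts in the other 3 EnzaR libraries. PDGFRA (2 counts) and THY1 (1 count) were likewise at 0 in those 3. Not all fibroblast markers followed this. COL1A1 had 376 counts there, against 345 and 400 in siNC and 294 in siYAP1 replicate 1. PDGFRB was lowest there, at 7 counts against 9, 16 and 21, and FAP had 0 throughout. In LNCaP, where VIM was high, COL3A1 had 162 to 198 counts, COL1A2 0 to 9, DCN 0 to 3, LUM 0 and FAP 0. The 9 fibroblast markers summed to 19.5 to 26.7 CPM in EnzaR and 106 to 122 CPM in LNCaP, most of it COL1A1. Their part in the VIM values was not tested.

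In all, 9 genes with at least 50 CPM in each LNCaP library had a mean at least 50-fold lower in EnzaR, VIM among them. This cut was chosen after the values were seen. MDK, a heparin-binding growth factor, had 11 to 25 counts in EnzaR and 5659 to 6313 in LNCaP. TMEFF2, a transmembrane protein, had 0 to 2 counts in EnzaR and 2719 to 3120 in LNCaP. In siYAP1 replicate 2, where VIM was at its EnzaR maximum, MDK was also at its maximum with 25 counts and TMEFF2 was at 0.

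The 250 bases before the start of VIM are shown because VIM and VIM-AS1, which overlaps its start, were both far lower in EnzaR than in LNCaP, with VIM-AS1 at 0 counts. The sequence is from RefSeq, GRCh38.p14, chr10:17227991-17228240, plus strand, with each CG dinucleotide in capitals.

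VIM upstream: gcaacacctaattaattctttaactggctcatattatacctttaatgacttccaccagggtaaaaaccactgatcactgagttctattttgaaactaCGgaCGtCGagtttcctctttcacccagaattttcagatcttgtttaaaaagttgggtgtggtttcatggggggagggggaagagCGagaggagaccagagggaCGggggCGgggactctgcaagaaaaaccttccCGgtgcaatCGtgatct

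It holds 8 CG dinucleotides and 46% G or C. A window of 300 bases, from 250 before to 50 after the start, was searched on both strands. The VIM window held no E-box CANNTG, a motif in 68.7% of 35116 windows of that length. It therefore held neither CACCTG nor CAGGTG, the E-box forms bound by SNAI and ZEB proteins (20.6% of windows), and it also lacked GGAATG or CATTCC, the TEAD motif (14% of windows). Of the 7 windows of ZEB1, 2 held CACCTG or CAGGTG, and 1 held the TEAD motif. A match or its lack describes these letters only.

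CDH1 (ENSG00000039068, chromosome 16, 68771128 to 68869451, plus strand) was at 499 and 436 CPM in siNC and at 337 and 383 CPM in siYAP1 libraries. In LNCaP it was at 962 CPM in the control, 847 with EV-siNC, 887 with EV-siYAP1 and 959 with EV-siCII. All EnzaR values lay below all LNCaP values. The means of 414 ± 69.9 and 914 ± 56.5 CPM (SD, n = 4) gave a log2 fold change of -1.14 with SE 0.109, a 2.21-fold lower level in EnzaR (edgeR, adjusted p = 5.82e-08). E-cadherin and vimentin transcripts were therefore both lower in the resistant line.

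EPCAM (ENSG00000119888, chromosome 2, 47572297 to 47614740) was at 69.6, 72.6, 75.4 and 70.2 CPM in EnzaR (siNC 1 and 2, siYAP1 1 and 2). In LNCaP it was at 78.5, 79.6, 74 and 75 CPM (control, EV-siNC, EV-siYAP1, EV-siCII). The lines overlapped. The log2 fold change was -0.09 with a 95% interval of -0.26 to 0.07 (edgeR, adjusted p = 0.289). EPCAM passed the test under 2 other scalings, at -0.20 with library totals alone (edgeR, adjusted p = 0.0208) and at -0.39 when GC content and length were corrected for (edgeR, adjusted p = 3.81e-05).

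CDH2 (chromosome 18, 25530930 to 25757410, minus strand), the cadherin of the mesenchymal state, had 1 count in siNC replicate 1 and 0 in the other 7 libraries. It was under the limit of 3 counts in both lines and gives no direction.

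The repressors of CDH1 were low or not detectable at this depth. SNAI1 (ENSG00000124216, chromosome 20, 48599536 to 48605423) was at 6.27 and 7.4 CPM in siNC, and at 7.63 and 8.83 CPM in siYAP1 libraries. In LNCaP it was at 5.02, 4.5, 6.12 and 4.6 CPM in the control, EV-siNC, EV-siYAP1 and EV-siCII libraries. The EnzaR values all lay above those of LNCaP, with siNC replicate 1 and EV-siYAP1 nearly touching. The means were 7.53 ± 1.05 and 5.06 ± 0.743 CPM (SD, n = 4), with a log2 fold change of 0.57, SE 0.166 (edgeR, adjusted p = 0.0052). When siNC libraries were set against the LNCaP control alone, SNAI1 no longer passed (log2 fold change 0.45, edgeR adjusted p = 0.16).

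SNAI2 (chromosome 8, 49830249 to 49834299) had 3, 6, 1 and 3 counts in EnzaR and 6, 12, 13 and 14 in LNCaP, and was not tested in the main fit. In CPM the EnzaR values, 0.0663 to 0.332, lay below those of LNCaP, 0.342 to 0.766. The gap was narrow, since 1 EnzaR library and the LNCaP control shared the value of 6 counts. Under some of the alternatives described at the end SNAI2 was called. ZEB1 (chromosome 10, 31607424 to 31818742) had 0 to 2 counts per library, although its antisense neighbour ZEB1-AS1 had 75 to 163. ZEB2 (chromosome 2, 145141648 to 145282147) had 0 counts in all 8 libraries. For ZEB1 and ZEB2 the limit of 3 counts allows up to 0.18 CPM in either line.

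ESRP1 and ESRP2, splicing regulators of one family, differed between the lines in opposite directions. ESRP1 (ENSG00000104413, chromosome 8, 95653302 to 95719694) was at 22.9, 24.9, 20.2 and 21.5 CPM in EnzaR and at 42.8, 48.9, 52.6 and 48.1 CPM in LNCaP. ESRP2 (ENSG00000103067, chromosome 16, 68263014 to 68272005) was at 155, 154, 139 and 153 CPM in EnzaR and at 103, 102, 94.2 and 105 CPM in LNCaP. For both genes the lines did not overlap, with ESRP1 lower and ESRP2 higher in all 4 EnzaR libraries. The log2 fold change of ESRP1 was -1.10 with SE 0.103, 2.15-fold lower in EnzaR (edgeR, adjusted p = 4.58e-08). That of ESRP2 was 0.57 with SE 0.0789, 1.49-fold higher (edgeR, adjusted p = 4.88e-06). After the GC and length correction these were -1.48 and 1.07, and for siNC libraries against the LNCaP control alone -0.84 and 0.59. ESRP2 overlaps NFATC3 on the opposite strand, which had 284 to 522 counts against 1740 to 2813 of ESRP2.

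Per length, ESRP2 exceeded ESRP1 in every library, 5.42 to 6.23 times in EnzaR and 1.57 to 2.1 times in LNCaP. The sum of both was 26.3 to 32.8 FPKM in EnzaR and 27.1 to 29.9 FPKM in LNCaP, ranges that overlapped.

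**Figure D2:**
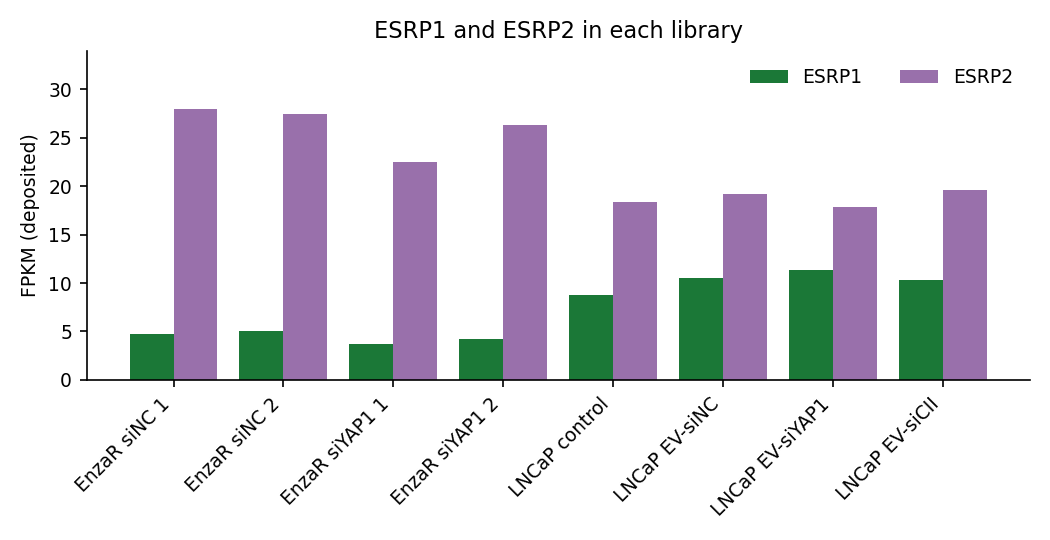
Deposited FPKM (bars from 0) of ESRP1 and ESRP2 in each of the 8 libraries. The ESRP2 bar is the taller in all 8, by 5.42 to 6.23 times in EnzaR and by 1.57 to 2.1 times in LNCaP.

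The wider programme was read from lists of other genes of the epithelial and mesenchymal states, each set beside a median of -0.01 over all genes tested. Of 18 adherens junction and desmosome genes, 6 were higher and 7 lower in EnzaR (median log2 fold change -0.20, or 0.01 for siNC libraries against the LNCaP control). P-cadherin (CDH3) was higher at 70.9 ± 3.05 against 15.7 ± 1.87 CPM (SD, n = 4, log2 fold change 2.18, edgeR adjusted p = 7.93e-12). CTNND1, the p120 catenin that holds cadherins at the membrane, was lower at 131 ± 14.6 against 350 ± 16.9 CPM (SD, n = 4, edgeR adjusted p = 3.95e-10), as was desmoplakin (DSP) at 109 ± 25.5 against 287 ± 22.3 CPM (edgeR adjusted p = 5.94e-08). Beta-catenin (CTNNB1) was higher, at 216 ± 22.2 against 153 ± 11 CPM (SD, n = 4, edgeR adjusted p = 9.45e-05). Of 20 tight junction and polarity genes, 3 were higher and 10 lower (median -0.23). After the GC and length correction 7 were higher and 6 lower and the median was 0.06, so the lean to lower calls was lost, and for siNC libraries against the LNCaP control 3 were higher and 5 lower. TJP3 was lower at 19.6 against 76.2 CPM, and OCLN (occludin) was higher at 45.4 against 29.4 CPM.

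Among 24 epithelial transcription factors and surface genes, 7 were higher and 9 lower (median 0.04, or -0.06 with library totals alone). GRHL2, an epithelial transcription factor, was at 132 ± 15.4 CPM in EnzaR and 70.2 ± 4.02 CPM in LNCaP (SD, n = 4, edgeR adjusted p = 1.63e-07), and the serine protease PRSS8 was lower at 163 against 486 CPM. Of 9 further mesenchymal transcription factors tested, 2 were higher and 5 lower (median -0.37). The median lay between -1.27 and -1.13 when siNC replicate 1, siNC replicate 2, siYAP1 replicate 1, siYAP1 replicate 2 or the EV-siYAP1 library was left out, where 10 genes were tested and 2 were higher and 6 lower. After the GC and length correction 4 were higher and 4 lower (median -0.12). SOX4 was lower at 85 ± 9.97 against 554 ± 30.2 CPM (SD, n = 4, edgeR adjusted p = 3.81e-13), and RUNX2 was higher at 5.06 against 0.991 CPM. Among 21 mesenchymal structural and matrix genes tested, 6 were higher and 12 lower (median -0.50). The collagen chains COL1A1 (20.6 against 100 CPM) and COL6A1 (209 against 855 CPM) were lower with VIM. Thrombospondin (THBS1), at 43.7 against 6.42 CPM, and tenascin C (TNC), at 7.54 against 0.368 CPM, were higher, as were 4 others. Each of these lists held calls in both directions, as did all 15640 genes tested, of which 36.2% were higher and 36.4% lower. The mix of directions is therefore not particular to these lists.

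Of 17 genes in a list of TGF-beta and WNT signals of the transition, 6 were higher and 6 lower (median 0.02). That list also holds genes of other pathways, such as NOTCH1 and JAG1. That even split depended on the setting, with 4 higher and 10 lower of 19 tested without siNC replicate 1 (median -0.32), 5 and 9 of 19 without siNC replicate 2 (median -0.18), and 3 and 6 of 17 with library totals alone (median -0.08). The inhibitors of bHLH factors ID1 and ID3, which respond to BMP signals, were among the genes higher in EnzaR. ID1 was at 109 ± 19 CPM in EnzaR against 1.68 ± 0.263 CPM in LNCaP (SD, n = 4, log2 fold change 6.01, edgeR adjusted p = 1.5e-14). ID3 was at 191 ± 46.7 against 3.44 ± 0.191 CPM (SD, n = 4, log2 fold change 5.79, edgeR adjusted p = 4.74e-14). The ligand TGFB1 was at 0.246 ± 0.188 CPM in EnzaR and 4.05 ± 1.14 CPM in LNCaP (SD, n = 4, edgeR adjusted p = 4.69e-08). Of 9 splicing regulators and ESRP targets, 5 were higher and 3 lower (median 0.63). SRSF1 was higher at 297 against 90.5 CPM and RBFOX2 lower at 36.3 against 101 CPM. FGFR2, whose exon choice depends on the ESRP proteins, was at 0.0729 ± 0.0534 CPM in EnzaR and 3.06 ± 0.889 CPM in LNCaP (SD, n = 4, edgeR adjusted p = 2.12e-08). Gene counts hold no splice forms, so none were measured.

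**Figure D3:**
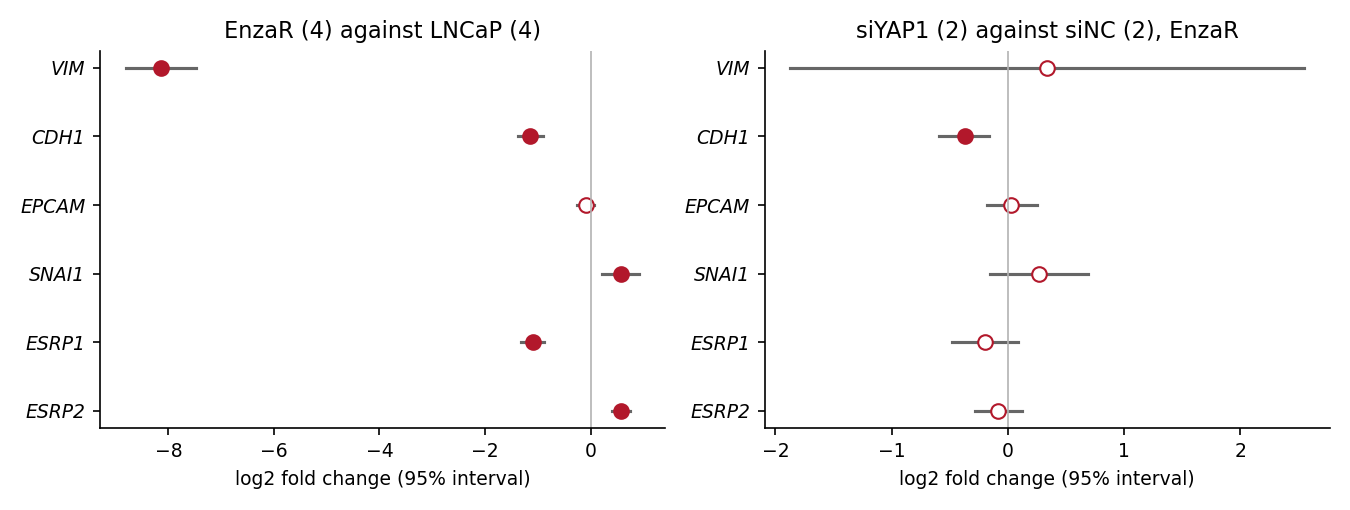
Log2 fold changes with 95% intervals from edgeR for the 6 genes tested, EnzaR against LNCaP (left) and siYAP1 against siNC in EnzaR (right), filled where the adjusted p is under 0.05. On the left VIM lies at -8.14 and EPCAM near 0. On the right CDH1, at -0.37, is the filled point, and the interval of VIM runs from -1.87 to 2.55.

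The comparison within EnzaR asked what depletion of YAP1 changes. CDH1 was the gene of the 10 that passed the test, and it fell. Of 6 genes tested 1 was called, where 12.1% of all 14948 genes tested with edgeR were called (5.83% higher, 6.22% lower), so 1 of 6 is near the background. No gene of the 6 was called with a 2-fold difference, against 0.649% of all genes. The log2 fold change of YAP1 itself was -3.02, SE 0.154 (edgeR, adjusted p = 2.07e-10). Here CPM is scaled over the 4 EnzaR libraries.

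CDH1 had 478 and 424 CPM with siNC and 323 and 373 CPM with siYAP1. Both siYAP1 values lay below both siNC values, as groups did not overlap for 58.5% of all genes. The mean was 451 ± 38.5 CPM with siNC and 348 ± 35.2 CPM with siYAP1 (SD, n = 2). The log2 fold change was -0.37, SE 0.102, with a 95% interval of -0.59 to -0.16 (edgeR, adjusted p = 0.0245). The call was lost without siNC replicate 1 (-0.28, edgeR adjusted p = 0.248) and without siYAP1 replicate 1 (-0.29, edgeR adjusted p = 0.264). It was also lost with replicate number as a block (-0.38, edgeR adjusted p = 0.056).

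VIM was at 0.685 and 0.967 CPM in siNC and at 0 and 2.02 CPM in siYAP1 libraries. The siYAP1 values lay on either side of both siNC values. The log2 fold change of 0.34 had a 95% interval of -1.87 to 2.55 (edgeR, adjusted p = 0.854), so neither direction was resolved. Without siYAP1 replicate 2, the library with the COL3A1, COL1A2, DCN and LUM counts, it was -6.88, resting on 1 library at 0 counts.

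The other genes had narrower intervals. EPCAM was at 66.7 and 70.5 CPM in siNC and at 72.3 and 68.3 CPM in siYAP1, with a log2 fold change of 0.03 (-0.18 to 0.25, edgeR adjusted p = 0.857). SNAI1, at 6.01 and 7.2 against 7.31 and 8.58 CPM, had 0.27 (-0.15 to 0.69, edgeR adjusted p = 0.392). The EPCAM groups overlapped, and both SNAI1 siYAP1 values were above both siNC values. ESRP1, at 22 and 24.2 against 19.4 and 20.9 CPM, had -0.20 (-0.48 to 0.09, edgeR adjusted p = 0.359). ESRP2, at 148 and 150 against 133 and 149 CPM, had -0.08 (-0.28 to 0.12, edgeR adjusted p = 0.621). None of these 4 passed the test, and their intervals do not reach a 2-fold change. CDH2, ZEB1, ZEB2 and SNAI2 had too few counts to test.

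In the same comparison 5 of 18 adherens junction and desmosome genes were lower and none higher (median log2 fold change -0.23 against -0.03 over all genes). Among all genes tested 12.1% were called, 5.83% higher and 6.22% lower. The lists are short, and none was tested against those shares. DSP went from 125 ± 0.0959 to 84.8 ± 13.7 CPM (SD, n = 2, edgeR adjusted p = 0.00437). Vinculin (VCL), desmoglein 2 (DSG2) and plakophilin 4 (PKP4) had log2 fold changes of -0.44, -0.41 and -0.35. The fifth gene is given by count only, and CDH1 is not in that list. Of 21 tight junction genes 3 were lower, OCLN (53.9 to 33.9 CPM), CLDN8 (4.68 to 2.17 CPM) and CGN (69.1 to 50.6 CPM). Of 19 mesenchymal structural genes 5 were lower, among them TNC, from 10.7 ± 1.4 to 3.84 ± 1.47 CPM (SD, n = 2, edgeR adjusted p = 0.00135), and the integrin subunit ITGB1, from 88.3 to 58.6 CPM (edgeR adjusted p = 0.0026). In the TGF-beta and WNT list, ID1 and ID3 rose (0.41 and 0.60) and BAMBI and TGFBR3 fell (-0.51 and -0.76), 4 of 16. SOX9 fell (-0.66), 1 of 9 mesenchymal transcription factors, and MBNL1 and ENAH fell (-0.55 and -0.29), 2 of 8 splicing genes. Among 24 epithelial factors SPDEF rose (0.37) and EHF fell (-0.51). Leaving out siNC replicate 1, siNC replicate 2, siYAP1 replicate 1 and siYAP1 replicate 2 in turn left 2, 2, 0 and 3 lower adherens junction genes. The same leave-outs gave 3, 3, 0 and 2 lower tight junction genes and 4, 4, 0 and 3 lower mesenchymal structural genes. They gave 1, 0, 0 and 1 lower splicing genes and 0, 1, 0 and 0 lower mesenchymal transcription factors. Without siYAP1 replicate 1 the TGF-beta and epithelial factor lists also had 0 calls, and among all genes 15 were higher and 11 lower. After the GC and length correction 2 adherens junction genes and 2 tight junction genes were lower. Of the mesenchymal structural genes 1 was higher and 2 were lower (median -0.08), and 1 mesenchymal transcription factor was lower. In the TGF-beta and WNT list 1 gene was higher and 1 lower, and 0 splicing genes and 0 epithelial factors were called. With library totals alone the split of all calls moved from 872 higher and 930 lower to 291 higher and 1416 lower.

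The LNCaP libraries asked whether vesicles of EnzaR cells alter the recipient cells. There was 1 library per group, so no difference has a replicate check and no test was made. The ratios below carry exact binomial 95% intervals for counting error only, and their CPM is scaled over the 4 LNCaP libraries. Only VIM, CDH1, EPCAM, ESRP1 and ESRP2 reached the floor of 10 CPM in either library. None of these 5 differed 2-fold in any of 4 comparisons, where 0.121% of all genes at that floor did so for EV-siNC against control. The share was 0.0547% for EV-siYAP1 against EV-siNC, 0.0772% for EV-siCII against EV-siNC and 0.0329% for EV-siYAP1 against EV-siCII. These comparisons share libraries.

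VIM, at 285 CPM in the control, was at 293 with EV-siNC, 271 with EV-siYAP1 and 296 with EV-siCII. The EV-siYAP1 library was the lowest, with a log2 ratio to EV-siNC of -0.11 (-0.17 to -0.05) and to EV-siCII of -0.13 (-0.18 to -0.07). Those ratios were larger than counting error but smaller than the SD of log2 ratios over all genes, 0.183 and 0.182. Vimentin transcripts were thus at a like level in the vehicle control LNCaP cells and in those given vesicles from cells nearly without them.

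CDH1 was at 988 CPM in the control, 883 with EV-siNC, 922 with EV-siYAP1 and 995 with EV-siCII. The EV-siNC library was the lowest and the control and EV-siCII libraries were the highest. The log2 ratio was -0.16 (-0.19 to -0.13) for EV-siNC against control and 0.17 (0.14 to 0.20) for EV-siCII against EV-siNC. In the latter comparison 89.2% of genes had a lower ratio than CDH1.

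EPCAM lay between 77 and 83 CPM in the 4 libraries, with log2 ratios of 0.04, -0.11, -0.09 and -0.02 in the 4 comparisons in the order above. ESRP1 was at 44 CPM in the control and 51 CPM with EV-siNC, a log2 ratio of 0.21 (0.07 to 0.36) that became 0.02 after the GC and length correction. ESRP2 was at 106 CPM in both of these libraries, 98 with EV-siYAP1 and 109 with EV-siCII. Its log2 ratio of EV-siYAP1 to EV-siCII was -0.15 (-0.25 to -0.06). SNAI1 had 88, 85, 113 and 84 counts in the control, EV-siNC, EV-siYAP1 and EV-siCII libraries, with a log2 ratio of 0.43 (0.02 to 0.86) for EV-siYAP1 against EV-siNC. SNAI2 had 6 counts in the control and 12 with EV-siNC, a log2 ratio of 0.74 (-0.61 to 2.61) that counting error alone spans. Of the list genes that reached 10 CPM, 0 passed 2-fold in these comparisons. They included 17 to 18 of 24 epithelial factors and surface genes, but only 3 of 15 mesenchymal transcription factors and 13 of 34 mesenchymal structural genes, and the rest were not compared.

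**Figure D4:**
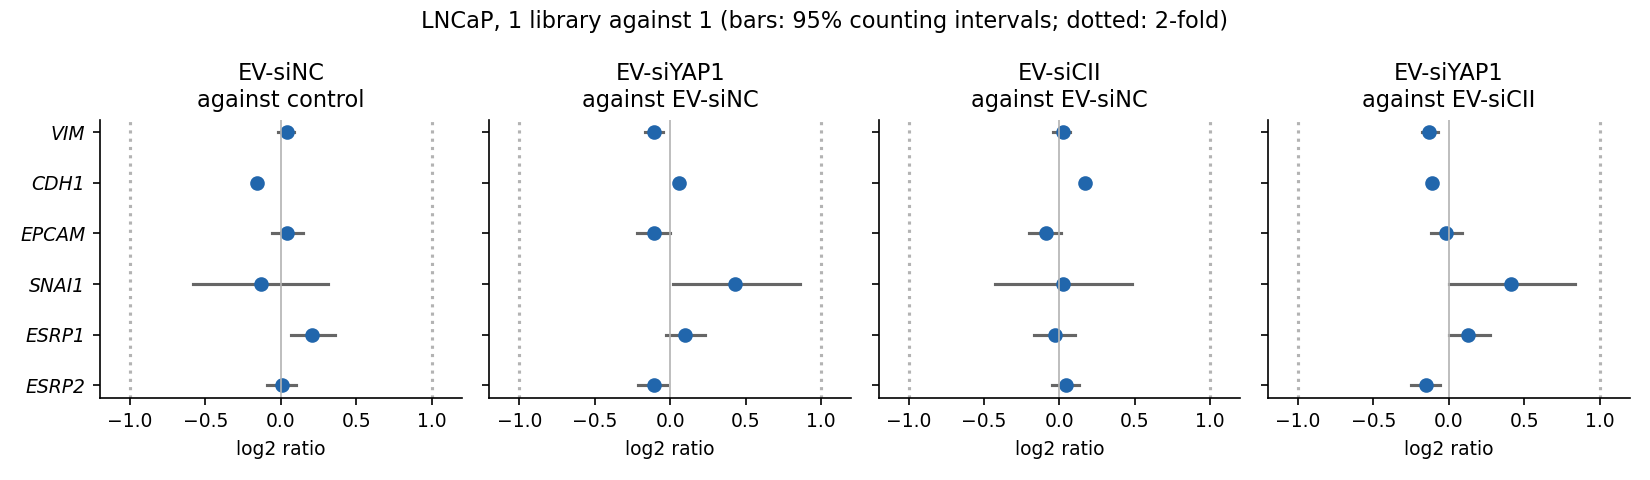
Log2 ratios of 6 genes in the 4 comparisons of single LNCaP libraries, with bars for 95% counting intervals and dotted lines at 2-fold. All points lie inside the dotted lines, and the widest bars belong to SNAI1, with 84 to 113 counts per library.

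The genes most like each of the 6 better counted members over the 8 libraries were found by the Euclidean distance of centred log2 CPM (10880 genes with a mean of 5 CPM). The 4 libraries of a line share their cells but not their treatment, and the distances do not separate a difference between the lines from one between treatments. Nearest to VIM were OPRK1, the kappa opioid receptor, and MDK, at distances of 2.92 and 2.96. Nearest to CDH1 was SARAF (0.154), which had 120 to 158 CPM in EnzaR and 295 to 324 CPM in LNCaP, then PLEKHA7 (0.167), an adherens junction protein, which had 13.8 to 21.2 and 37.5 to 42.2 CPM. EPCAM was nearest to RPAIN and STK36, SNAI1 to ZNF584 and RNF216P1, ESRP1 to TNKS and TBKBP1, and ESRP2 to YTHDF2 and FAM86EP, at distances of 0.1 to 0.29. The neighbours of VIM were the most distant of the 6. VIM had only 0 to 36 counts in the EnzaR libraries, where counting error is wide on a log2 scale. Its distances therefore cannot be compared with those of the other genes.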

How the data were processed

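Total RNA of 8 libraries was sequenced, and groups came from the sample labels. The deposited table gives the authors' raw read counts per Ensembl gene and FPKM. Per the submitters' processing notes the build was hg19 (GRCh37), and the tools listed, with no role given, were HTSeq 0.6.1, HISAT2 2.0.1, cutadapt 1.9.1 and DESeq2. The annotation release is not given in the sources used here. The authors' FPKM equalled count over length and column total for all 463240 values within 0.0051, and served only for levels between genes.

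Counts were tested with edgeR 4.0.16 under R 4.3.3, by its robust quasi-likelihood fit (TMM scaling, filterByExpr, Benjamini-Hochberg adjustment over all genes tested, threshold 0.05), on the libraries named beside each result, and checked on simulated data. Ratios of single libraries used a prior count of 2 and a floor of 10 CPM in either library. Alternatives were DESeq2 1.42.0, limma-voom (limma 3.58.1), other scalings and filters, a replicate block, a correction for GC content and length (mgcv 1.9.3, GC available for 90.4% of genes) and each library left out. The 10 genes and 13 gene lists (200 of 205 entries matched) were chosen with earlier results of these data known. The rule for naming list genes took up to 4 per direction with the smallest adjusted p, from which examples are given, and for likeness the 2 nearest genes. Some list genes are given by count only. Same-numbered siNC and siYAP1 libraries are not shown to be pairs: their deviations from the group means correlated at -0.0798 over 14948 genes.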

Additional observations from a re-analysis of the deposited data

Results flagged for a closer look

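ESRP2 in siYAP1 replicate 1, at 139 CPM, lay apart from the other 3 EnzaR libraries, at 153 to 155 CPM. It was picked out because its gap to the nearest library takes up most of the range of the 4. Chance picks out about 1 in 20 such groups, and the 4 libraries had received different siRNAs.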

How the results depend on the processing

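Against LNCaP, 4 to 6 of the 10 genes were called under the 16 alternatives, and the direction of the 6 tested genes was the same in all. The ranges of the log2 fold change were -9.07 to -7.77 for VIM, -1.25 to -1.01 for CDH1, -0.39 to -0.07 for EPCAM, 0.45 to 0.69 for SNAI1, -1.48 to -0.84 for ESRP1 and 0.48 to 1.07 for ESRP2. Where 6 were called, the added gene was EPCAM or the low-count SNAI2. In the YAP1 knockdown 1 of the 10 genes was called, 0 with the replicate block, and 0 to 2 with 1 library left out, a fit in which the single library left is taken to vary as the other group does. CDH1 kept its direction under all 12 alternatives (-0.48 to -0.28). VIM turned to -1.60 with limma-voom, -0.05 with the replicate block and, with 1 library left out, ranged from -6.88 (without siYAP1 replicate 2) to 1.27 (without siYAP1 replicate 1). EPCAM turned to -0.07 with library totals alone, -0.01 without siNC replicate 1 and -0.02 without siYAP1 replicate 1, in a range up to 0.09 without siYAP1 replicate 2, and ESRP1 to 0.01 after the GC and length correction. The causes were not tested. Over all genes, 872 higher and 930 lower calls became 916 and 467 with DESeq2, 564 and 845 with the replicate block, 460 and 224 after the GC and length correction, 234 and 829 without siNC replicate 1, 579 and 538 without siNC replicate 2 and 940 and 516 without siYAP1 replicate 2. In the vesicle comparisons, those of the 10 genes that met the CPM floor stayed within 2-fold under each alternative run. Depth limits CDH2, ZEB1, ZEB2 and SNAI2.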
